A study of Mus musculus with 8 samples.

Results

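The mouse genome carries 44 protein-coding genes for collagen chains by the rule used here, a symbol made of Col, a type number, the letter a and a chain number. Of these, 32 were in the deposited table of 20189 genes, which was measured in 4T1 cells with and without acetate. The 44 genes were sorted by the known form of their protein into 11 fibrillar, 8 basement membrane, 9 fibril-associated (FACIT) and 4 transmembrane chains, and 12 of other forms such as type VI and type VII. The 4T1 line is a wild-type mouse mammary carcinoma line, labelled as WT breast cancer of mammary origin. Cells in both groups grew in DMEM with serum, and they received 5 mM acetate or water as the vehicle for 48 h before messenger RNA was sequenced. Acetate is a precursor of acetyl-CoA, and the sequencing asked which genes respond to a larger supply of it. There were 4 acetate and 4 vehicle libraries, and same-numbered libraries share an experiment code. A culture of 1 cell line models the carcinoma cells without the fibroblasts, vessels and leukocytes of a tumour.

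Collagens are the main structural proteins of the extracellular matrix. Each molecule is a helix wound from chains in which glycine recurs as the first residue of every triplet, and the chains of a molecule may be products of different genes. Fibrillar collagens such as type I give tissue its tensile strength, type IV forms the sheet-like network of basement membranes, FACIT chains decorate the surface of fibrils, and type VI forms beaded filaments between cells and matrix. Carcinoma cells are known for contact with basement membrane, which they must cross to spread, while the bulk of fibrillar collagen in a tumour is made by fibroblasts.

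The glycine repeat is visible in the genes themselves. The stretches here are 54-base exons from 6 chains that rose with acetate, of the fibrillar, basement membrane, FACIT and type VI forms, printed 5′ to 3′ on the coding strand with each glycine codon at the head of a triplet in capitals. Their coordinates are on GRCm38 and their sequences are from the GENCODE M21 transcripts.
Col1a1, exon 8, chr11:94939904-94939957, + strand: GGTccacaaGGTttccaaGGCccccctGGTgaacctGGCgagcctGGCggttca
Col5a1, exon 15, chr2:27965251-27965304, + strand: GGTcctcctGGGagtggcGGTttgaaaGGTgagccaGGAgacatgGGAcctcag
Col4a1, exon 7, chr8:11245211-11245264, − strand: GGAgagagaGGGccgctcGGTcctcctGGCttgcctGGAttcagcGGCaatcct
Col4a5, exon 8, chrX:141575988-141576041, + strand: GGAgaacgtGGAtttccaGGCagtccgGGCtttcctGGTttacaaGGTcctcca
Col12a1, exon 55, chr9:79614349-79614402, − strand: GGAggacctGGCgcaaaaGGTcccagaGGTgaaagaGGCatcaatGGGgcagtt
Col6a1, exon 9, chr10:76719623-76719676, − strand: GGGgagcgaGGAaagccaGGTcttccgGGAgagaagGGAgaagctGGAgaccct

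Each of these exons encodes 6 whole triplets, and the codons between the glycines differ from gene to gene. In the fibrillar class 305 exons had this length of 54 bases, out of 469 among all 44 genes. The longest unbroken run of triplets led by a glycine codon had 216 to 344 triplets in the 11 fibrillar genes (median 338), and 30 to 66 in the 8 basement membrane genes, whose repeat is broken at many places. FACIT genes had runs of 32 to 113 triplets, transmembrane genes 40 to 56 and the other genes 23 to 87. Col12a1 is at the far end of the family, with 7.63% of its codons in runs of 10 or more triplets, against 73.3% in Col1a1 and 74.1% in Col4a1.

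**Figure D1:**
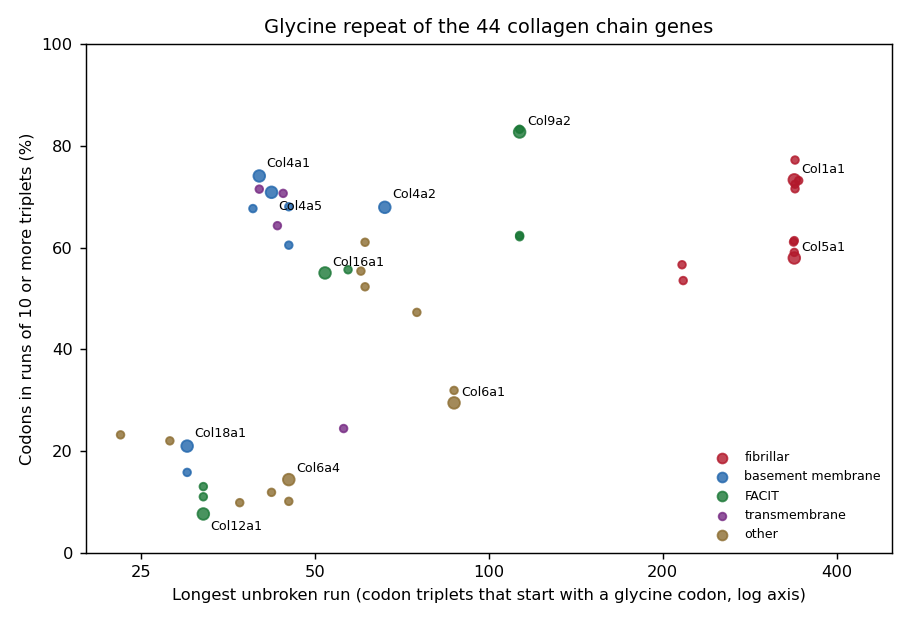
Glycine repeat of the 44 collagen chain genes. The x axis (log scale) is the longest unbroken run of triplets led by a glycine codon, the y axis the percentage of codons in runs of 10 or more triplets, each point is a gene in the colour of its class, and the larger, named points are the 11 chains that were higher in acetate. The fibrillar genes stand apart at 216 to 344 triplets, and the named points lie in both this cluster and the rest of the family.

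The libraries held 19.9 to 29.3 M reads (M, mega) over the genes of the table. Values are normalised reads on a library total of 20000000, so that 1 unit is roughly 1 read. Depth sets the precision: 19 chains had a mean of at least 10 units over the 8 libraries and are described with the value in every library, while the other 13 had at most 19 reads in any library. The carcinoma markers Epcam, Cdh1, Krt7, Krt8, Krt18, Krt19 and Cldn4 were all present, with summed levels of 59340.0 to 81570.0 in vehicle and 64830.0 to 83920.0 in acetate. The 4 pairs carry different experiment codes. Unless stated otherwise, p-values measure how the difference between acetate and vehicle varies from pair to pair, not the spread of levels between experiments.

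Basement membrane chains, foremost Col4a1 and Col4a2 of type IV, dominated the collagen RNA of these cells. Basement membrane chains held 61.0% of all collagen reads, the other class 25.6%, FACIT chains 8.0%, fibrillar chains 5.42% and transmembrane chains 0.051%. The basement membrane class also counts Col15a1 and Col18a1, which are not type IV. Col4a1 and Col4a2 together held 44.2% to 55.9% by library. Per kilobase of exon, the scale on which genes can be set side by side, Col4a1 had a mean level of 1999 units and Col4a2 1275. Next came Col18a1 (749), Col8a1 (685), Col7a1 (606), Col16a1 (526), Col5a1 (281), Col6a1 (192) and Col4a5 (176). The remaining chains lay at 21.5 (Col12a1) or lower. Col1a1, the fibrillar chain most abundant in connective tissue, had 9.74 units per kilobase and its partner Col1a2 0.096. Of the chains that fibroblasts make in bulk, Col3a1 and Col5a2 were not among the genes of the table.

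**Figure D2:**
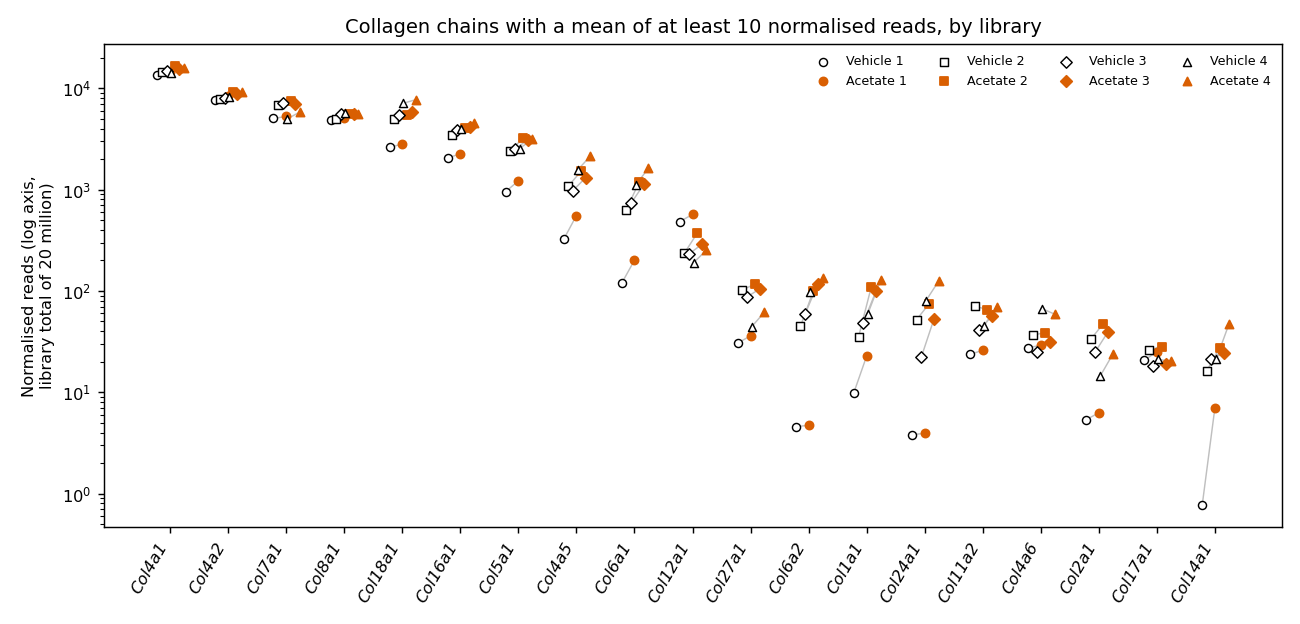
Normalised reads (log axis, library total of 20000000) of the 19 collagen chains with a mean of at least 10 units, in order of their mean. Open symbols are vehicle and filled symbols acetate libraries, the symbol shape gives the replicate number and a grey line joins each pair. For most chains the pairs lie far from each other and each line rises, as for Col1a1, at 9.92 and 22.8 in pair 1 and at 59.4 and 127 in pair 4.

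Collagen chains were higher in acetate wherever a change passed the test. In limma with the replicate number as a block, 11 of the 32 chains rose, 0 fell and 21 did not pass (adjusted p of 0.05, two-sided, over all 20189 genes). Col6a4 counts among the 11, and among the 17 and 18 chains below. Its vehicle values were all 0, while each gene of the table is above 0 in at least 4 of the 8 libraries. Col6a4 is thus in the table only through acetate and could only be higher there. Called higher over the whole table were 5.99% of genes, and 2.65% were called lower. Among the 19 chains of at least 10 units 9 rose, where 8.85% of all genes at that level did so. The median log2 change was 0.32 over the 32 chains and 0.29 over these 19, beside 0.02 over all genes. In all 4 pairs 17 of the 32 chains were higher in acetate, where 16.7% of all genes were. Each of the 19 was higher on average, and 14 of them were higher in all 4 pairs, against 21.6% of genes at that level. At an unadjusted p under 0.05 in this fit there were 18 chains higher and 0 lower. The share of all genes past that threshold was not counted, so no excess is read from the 18. In RNA of a whole culture, more cells with a transcript and more transcript in each cell cannot be told apart.

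The calls rest on the pairing. Without the block, limma called 0 chains and 0 genes of the table, 2 chains (Col4a2 and Col6a4) had an unadjusted p under 0.05, and 1.75% of all genes did. Only for those 2 of the 32 chains did the acetate and vehicle values not overlap, where 1.65% of all genes were so separated. For Col6a4, in the table only through its acetate libraries, this separation and the unadjusted p follow from that filter. Among the 19 chains of at least 10 units 1 chain was separated (Col4a2), where 1.56% of genes at that level were. For the other 30 chains the groups overlapped. Leaving out a pair also lowered the count, from 11 to 7 without replicate 2, 6 without replicate 3 and 6 without replicate 4, while it was 12 without replicate 1. Col1a1, Col5a1, Col4a2, Col4a5, Col16a1 and Col6a1 passed in all 4 of these fits.

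**Figure D3:**
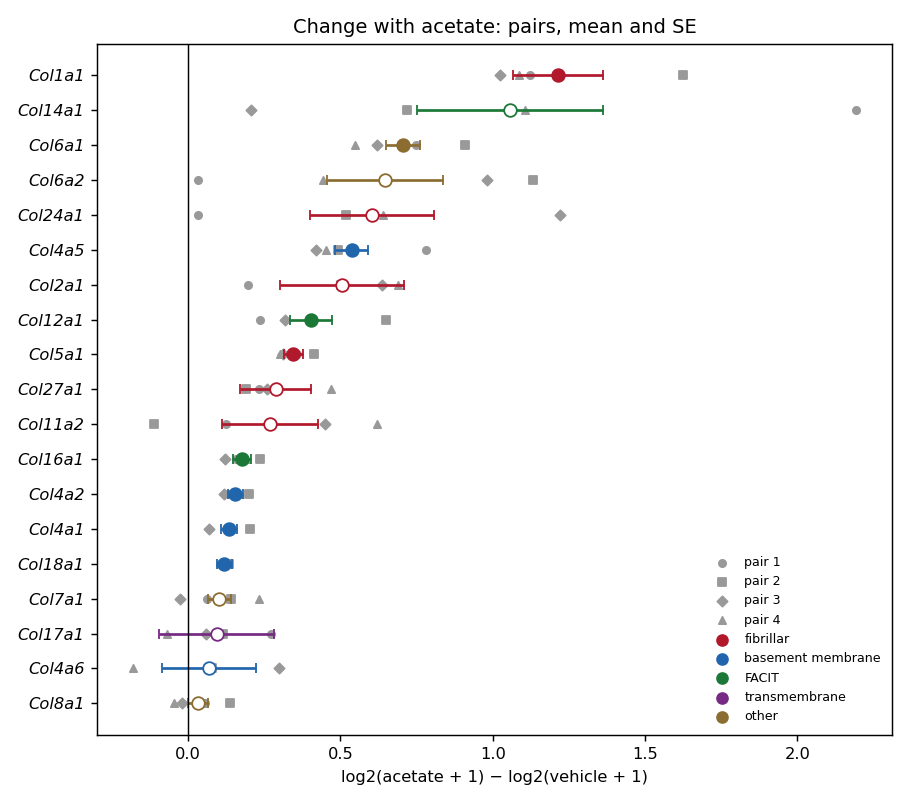
Change of each of the 19 chains with acetate, as the difference of log2(value + 1). Grey symbols are the 4 pairs, coloured points the mean and bars its SE from limma with the block, filled where the adjusted p was under 0.05. The 9 filled points lie to the right of 0, from 0.12 (Col18a1) to 1.21 (Col1a1).

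Among fibrillar chains, 8 of 11 were in the table and 2 rose. Col1a1 (ENSMUSG00000001506, chr11:94936224-94953042), the major chain of type I collagen of skin, bone and tumour stroma, had 9.92, 35.0, 48.3 and 59.4 normalised reads in vehicle libraries 1 to 4 and 22.8, 109.8, 99.1 and 127 in the acetate libraries. The acetate value was the higher of each pair, though the groups overlapped because both libraries of replicate 1 were low. The mean went from 38.1 ± 21.3 to 89.7 ± 46.1 (SD, n = 4), a 2.32-fold rise (log2 change 1.21 ± 0.15, SE; limma, adjusted p = 7.61e-04). This was the largest change of a chain of at least 10 units, and it rested on 13 to 177 reads per library. Col5a1 (ENSMUSG00000026837, chr2:27886425-28039514), a chain of type V collagen, which starts and limits the width of type I fibrils, had 954, 2413, 2498 and 2546 normalised reads in vehicle and 1221, 3215, 3102 and 3137 in acetate. Replicates 2 to 4 did not overlap between the groups, and replicate 1 was below them in both. Its pairs differed by 0.36, 0.41, 0.31 and 0.30, a mean log2 change of 0.35 ± 0.03 (SE) or 1.27-fold (limma, adjusted p = 1.99e-04). Transcripts of the opposite strand overlap 1.17% and 1.33% of its exon bases, and the sources used here do not state whether reads were counted by strand.

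The 4 other fibrillar chains of at least 10 units did not pass. Col24a1, which is known from developing bone and eye, had 3.82, 52.1, 22.1 and 79.8 normalised reads in vehicle and 3.92, 75.1, 52.8 and 125 in acetate. It was higher in all 4 pairs, by 0.03 in pair 1 (log2 change 0.60 ± 0.20, limma adjusted p = 0.0973), and it passed without that pair (0.79, adjusted p = 0.0145). Col2a1, the chain of cartilage collagen, had 5.34, 33.4, 25.1 and 14.3 in vehicle and 6.28, 47.7, 39.6 and 23.7 in acetate (0.51 ± 0.20, adjusted p = 0.163). Col27a1 had 30.5, 103, 87.5 and 44.4 in vehicle and 36.1, 117, 105 and 61.8 in acetate (0.29 ± 0.12, adjusted p = 0.166). Both were higher in acetate in all 4 pairs. Col11a2, a partner of Col2a1 in cartilage fibrils, had 23.7, 70.8, 41.2 and 45.0 in vehicle and 25.9, 65.4, 56.6 and 69.7 in acetate and was higher in 3 pairs (0.27 ± 0.16, adjusted p = 0.353).

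Basement membrane chains had the highest levels and mostly small changes, and 4 of the 7 in the table rose. Col4a1 (ENSMUSG00000031502, chr8:11198423-11312826) and Col4a2 (ENSMUSG00000031503, chr8:11312805-11449287) encode the chains of the type IV network found in all basement membranes. Col4a1 had 13386, 14429, 14828 and 14263 normalised reads in vehicle and 14583, 16623, 15560.0 and 15714 in acetate. Col4a2 had 7701, 7917, 8038 and 8267 in vehicle and 8456, 9095, 8720.0 and 9293 in acetate. For Col4a2 every acetate library was above every vehicle library, whereas for Col4a1 the acetate library of replicate 1 lay within the vehicle values. Col4a2 rose 1.11-fold (log2 change 0.16 ± 0.03, limma adjusted p = 0.00364) and Col4a1 1.10-fold (0.13 ± 0.03, adjusted p = 0.0107). The call of Col4a1 was lost without replicate 2, 3 or 4 (adjusted p = 0.105, 0.0504 and 0.0749).

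Col4a5 (ENSMUSG00000031274, chrX:141475385-141689234), a type IV chain of the kidney filter and of some epithelia, rose more than these. It had 322, 1081, 980.1 and 1563 normalised reads in vehicle and 555, 1521, 1313 and 2142 in acetate. Each acetate library exceeded its own vehicle library, and between experiments the level differed several-fold. Its mean went from 986 ± 511 to 1383 ± 655 (SD, n = 4), a 1.45-fold rise (log2 change 0.54 ± 0.05, limma adjusted p = 3.19e-04). Col18a1 (ENSMUSG00000001435, chr10:77052178-77166548), the source of the fragment endostatin, had 2617, 4972, 5425 and 7130.4 in vehicle and 2814, 5461, 5881 and 7744 in acetate. It was higher in each pair by a like amount (0.12 ± 0.02, adjusted p = 0.0127). The call was lost without replicate 2, 3 or 4 (adjusted p = 0.0987, 0.0886 and 0.0657) and in DESeq2 on recovered reads (adjusted p = 0.0707).

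Col4a6 (chrX:141165403-141474076) lies head to head with Col4a5, with 1308 bases between the genes, and it did not pass. It had 27.5, 36.6, 25.1 and 66.9 normalised reads in vehicle and 29.0, 38.8, 31.1 and 58.9 in acetate (log2 change 0.07 ± 0.16, limma adjusted p = 0.862). Vehicle 4 held its highest value. The ratio of Col4a5 to Col4a6 per kilobase was 13.9, 35.0, 46.3 and 27.7 in vehicle and 22.7, 46.6, 50.03 and 43.1 in acetate, higher in all 4 pairs. The mean change of this ratio was 0.47 on the log2 scale, with an exact sign-flip permutation p of 0.125, the smallest that 4 pairs allow. The bases just upstream of each start are shown because the genes run in opposite directions from this interval and were at such unequal levels, 5′ to 3′ on the strand of each gene from RefSeq on GRCm38.p6. Capitals mark CCAAT in the first and CCGCCC, the reverse complement of GGGCGG, in the second. The Col4a5 window holds GGGCGG as well, within the 34 exon bases that follow the printed stretch.
Col4a5, 216 bases, chrX:141475169-141475384, + strand: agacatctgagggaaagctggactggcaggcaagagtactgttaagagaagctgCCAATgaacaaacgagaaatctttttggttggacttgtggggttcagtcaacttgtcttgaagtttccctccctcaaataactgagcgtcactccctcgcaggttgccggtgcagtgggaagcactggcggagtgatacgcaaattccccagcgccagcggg
Col4a6, 250 bases, chrX:141474077-141474326, − strand: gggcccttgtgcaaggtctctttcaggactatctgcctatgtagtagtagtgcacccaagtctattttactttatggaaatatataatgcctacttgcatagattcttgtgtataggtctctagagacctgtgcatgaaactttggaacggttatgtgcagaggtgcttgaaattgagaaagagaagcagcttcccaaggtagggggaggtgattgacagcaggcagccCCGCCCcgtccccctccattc

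Motifs were searched on both strands in the 250 bases before the start, in 38 windows of 35 collagen genes. CCAAT was in 34.2% of them, beside 33.9% of all 32851 windows and 35.5% of the 12335 windows of genes with at least 10 units. TATAAA was in 13.2%, beside 12.4% and 6.39%. GGGCGG was in 57.9%, beside 32.7% and 57.9%. The 38 windows include collagen genes that are not in the table. In the 17 windows of collagen chains with at least 10 units, the set to place beside the 12335, CCAAT was in 41.2%, TATAAA in 11.8% and GGGCGG in 70.6%. A match gives only the letters present in a window.

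FACIT chains contributed 3 of the 11 rises from 6 chains in the table. Col16a1 (ENSMUSG00000040690, chr4:130047840-130099283), which is found near basement membranes and in cartilage, had 2036, 3456, 3845 and 3978 normalised reads in vehicle and 2272, 4076, 4184 and 4540.2 in acetate. It was higher in each pair, and the groups overlapped (log2 change 0.18 ± 0.03, 1.13-fold, limma adjusted p = 0.00364). Col12a1 (ENSMUSG00000032332, chr9:79598991-79718831), a chain bound to type I fibrils in dense tissue, had 483, 236, 231 and 190.4 in vehicle and 569, 371, 289 and 253 in acetate. Alone among the 19 it was highest in both libraries of replicate 1. It rose 1.32-fold (0.40 ± 0.07, adjusted p = 0.00502), and the call was lost without replicate 3 (adjusted p = 0.0518) or 4 (0.0622). Col14a1, another partner of fibrils, had 0.763, 16.3, 21.1 and 21.2 in vehicle and 7.06, 27.5, 24.5 and 46.7 in acetate. Vehicle 1 held a single read of it, and the change did not pass (1.06 ± 0.31, adjusted p = 0.0561, and 0.68 with adjusted p = 0.118 without replicate 1).

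In the remaining classes Col6a1 was the chain that stood out. Col6a1 (ENSMUSG00000001119, chr10:76708792-76726168), a chain of the beaded type VI filaments of muscle and stroma, had 119, 632, 732 and 1109.7 normalised reads in vehicle and 201, 1187, 1125 and 1624 in acetate. Every pair rose, by 0.75, 0.91, 0.62 and 0.55, while the level between experiments spanned a wider range than the change. The mean went from 648 ± 408 to 1034 ± 598 (SD, n = 4), a log2 change of 0.71 ± 0.06 or 1.63-fold (limma, adjusted p = 9.58e-05, the lowest of any chain). Its obligate partner Col6a2 had 4.58, 44.8, 59.3 and 97.6 in vehicle and 4.71, 99.3, 118 and 133 in acetate. It was almost level in pair 1, and did not pass with all pairs (0.65 ± 0.19, adjusted p = 0.0583) but did so without replicate 1 (0.85, adjusted p = 0.00524).

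Abundant chains of this class differed little. Col7a1, the anchoring fibril that fastens epithelium to dermis, had 5045, 6860.1, 7184 and 4991 normalised reads in vehicle and 5273, 7567, 7049 and 5863 in acetate. It was higher in 3 pairs and lower in pair 3 (log2 change 0.10 ± 0.04, limma adjusted p = 0.124). Col8a1, a short-chain network collagen of vessel walls and cornea, had 4878, 5035, 5624 and 5716 in vehicle and 5069, 5537, 5548 and 5538 in acetate. Pairs went in both directions (0.03 ± 0.03, adjusted p = 0.626). Col17a1, the transmembrane chain of the hemidesmosome, had 20.6, 26.0, 18.1 and 21.2 in vehicle and 25.1, 28.3, 18.9 and 20.1 in acetate (0.09 ± 0.19, adjusted p = 0.838). Neither of the 2 transmembrane chains in the table passed.

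The 13 chains under 10 units are Col1a2, Col5a3, Col4a4, Col15a1, Col9a2, Col9a3, Col20a1, Col23a1, Col6a3, Col6a4, Col6a5, Col8a2 and Col28a1, and 2 of these passed. Col9a2, a FACIT chain of cartilage, had 0, 3, 2 and 9 reads in vehicle and 1, 14, 10 and 15 in acetate, higher in each pair (log2 change 1.30 ± 0.35, limma adjusted p = 0.0395). The call was lost without replicate 2, 3 or 4 (adjusted p = 0.189, 0.185 and 0.103) and with a pseudocount of 0.1 (0.0603). Col6a4 had 0 reads in every vehicle library and 2 in every acetate library, all under the floor of 3 reads, so no fold is given (adjusted p = 0.0355). Genes of the table are above 0 in at least 4 of the 8 libraries, so Col6a4 is in it only through acetate. Its direction and the separation of its groups were therefore set by this filter, and its call is no evidence of a rise. Col6a4 did not pass without any one pair (adjusted p from 0.0913 to 0.125), in edgeR on recovered reads (0.0827) or with a pseudocount of 5 (0.0636). None of the other 11 showed a detectable change at these few reads. Col5a3 and Col6a3 had negative changes (-0.10 and -0.56, adjusted p = 0.924 and 0.462), and that of Col5a3 was positive in edgeR on recovered reads (0.16), with a pseudocount of 5 (0.02) and without replicate 1 (0.15). The 12 genes with no row in the table were Col3a1, Col5a2, Col11a1, Col4a3, Col9a1, Col19a1, Col22a1, Col13a1, Col25a1, Col6a6, Col10a1 and Col26a1, and they were not analysed here.

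Chains that assemble with each other were at unequal levels in several types. Type I collagen is normally built from Col1a1 and Col1a2, yet Col1a2 had 5, 0, 0 and 0 reads in vehicle and 3, 3, 1 and 0 in acetate, where Col1a1 had 13 to 177. Type VI filaments need a further chain beside Col6a1 and Col6a2, and Col6a3 had at most 2 reads in any library. Col6a1 exceeded Col6a2 by 18.1 to 81.1 times per kilobase, with no common direction among pairs (exact sign-flip permutation p = 0.875). Type V usually joins Col5a1 with Col5a2, which was not in the table. By contrast Col4a1 to Col4a2 kept a ratio of 1.499 to 1.64 per kilobase in all 8 libraries, and its mean log2 change was -0.02 (exact sign-flip permutation p = 0.25, smallest possible 0.125). These genes start 21 bases apart on opposite strands of chromosome 8 and share 22 exon bases.

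**Figure D4:**
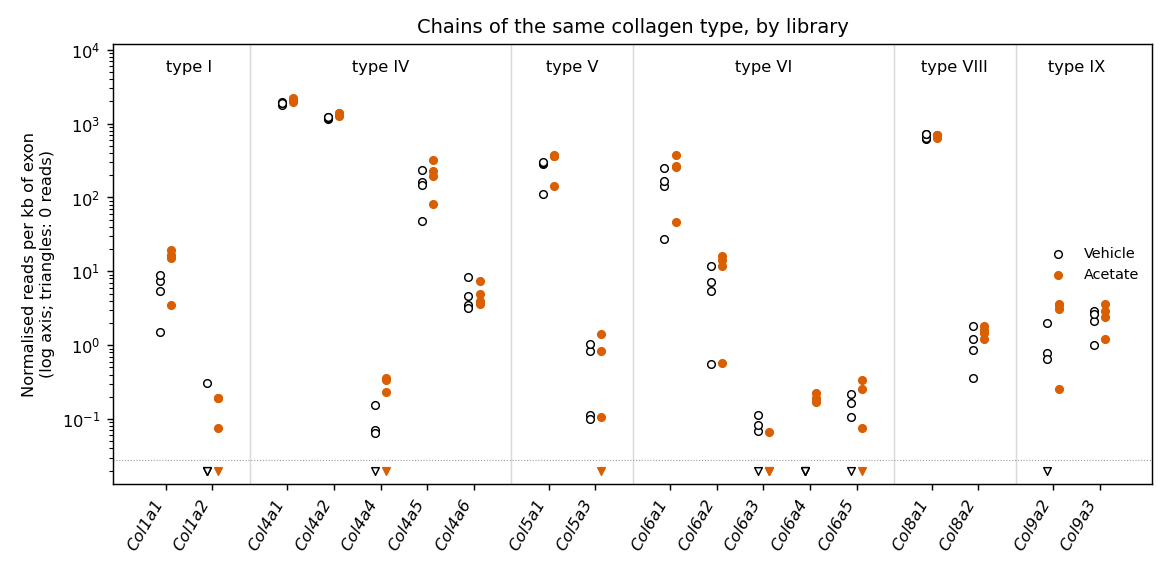
Levels per kilobase of exon (log axis) of chains that belong to the same collagen type, with 4 vehicle (open) and 4 acetate (filled) libraries each and triangles for 0 reads. Col4a1 and Col4a2 lie close to each other above 1000 units, whereas Col1a2 and Col6a3 are near or at 0 in libraries where Col1a1 and Col6a1 are not.

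The summed collagen signal was slightly higher in acetate in each pair. It was 37688, 47484, 49779 and 50252 normalised reads in vehicle and 41198, 55339, 53377 and 56595 in acetate. These are 0.232 ± 0.029% and 0.258 ± 0.035% of the library (SD, n = 4). The pairs differed by 0.13, 0.22, 0.10 and 0.17 on the log2 scale (mean 0.16 ± 0.05, SD).

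For 17 of the 19 chains of at least 10 units the replicate number held more of the variance than treatment did. The exceptions were the most abundant chains, Col4a1 (38.1% in replicate and 54.8% in treatment) and Col4a2 (22.5% and 74.4%). The replicate number held a median of 90.8% of the variance of the 19 chains (22.5% to 98.8%), and over 80% in 14 of them, while treatment held a median of 5.63%. These are shares of the sum of squares, and replicate has 4 levels where treatment has 2, which alone favours replicate. The same shares were not computed over all genes, so they are not read as a trait of collagen chains. In 15 of the 19 both libraries of replicate 1 were the lowest of their group, against 48.9% of all genes at that level, and Col12a1 alone was highest in both (26.0% of genes). Col4a1 and Col4a2 accounted for 55.9% of collagen reads in both libraries of replicate 1 and for 44.2% to 47.1% in the 6 others. The cause of this difference was not tested. With replicate 1 left out, the log2 change of Col1a1 was 1.24, that of Col6a1 0.69, that of Col4a5 0.46 and that of Col5a1 0.34.

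The genes that modify and process collagen were read from a separate list. Of 32 listed genes for hydroxylation, folding, export, cleavage and cross-linking, 28 were in the table, 5 rose, 1 fell and 22 did not pass, where 5.99% of all genes were called higher and 2.65% lower. The single fall is near that share. Their median log2 change was 0.04. Fkbp14, a proline isomerase of the endoplasmic reticulum, had 35.1, 121, 105 and 119 normalised reads in vehicle and 67.5, 167, 147 and 162 in acetate (log2 change 0.58 ± 0.11, limma adjusted p = 0.00664). P4ha2, a catalytic subunit of the prolyl hydroxylase that stabilises the helix, had 257, 1187, 1026 and 1106 in vehicle and 317, 1523, 1309 and 1476 in acetate (0.36 ± 0.04, adjusted p = 3.55e-04). Plod1, a lysyl hydroxylase, had 239.7, 921, 852 and 1020.3 in vehicle and 366, 1120.3, 939 and 1322 in acetate (0.35 ± 0.06, adjusted p = 0.00592). All 3 were higher in each pair and lowest in replicate 1, as most chains were. Pcolce and P4ha1 also passed (0.24 and 0.16). Ppib, which acts with the prolyl 3-hydroxylase, was the gene called lower, from 7638 ± 99.0 to 7136 ± 271 (SD, n = 4; log2 change -0.10 ± 0.03, adjusted p = 0.0383). Serpinh1, the collagen chaperone HSP47, was not called (0.04 ± 0.03, adjusted p = 0.542). With a pair left out, P4ha2 passed in all 4 fits. Ppib passed in none of them (adjusted p = 0.0676, 0.226, 0.0883 and 0.147 without replicates 1 to 4). Plod1 was lost without replicate 4 (0.0866), and Fkbp14 without 3 or 4 (0.0637 and 0.0576). P4ha1 was lost without 2, 3 or 4 (0.0591, 0.0990 and 0.0740) and Pcolce without 1, 2 or 3 (0.0720, 0.149 and 0.172). None of the 28 was called without the block.

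Collagen receptors went in both directions. Of 11 listed genes 8 were in the table, 3 rose, 2 fell and 3 did not pass, beside the same 5.99% higher and 2.65% lower of all genes. Itga2, an integrin subunit that binds collagen, had 4585, 5267, 5669.7 and 3864 normalised reads in vehicle and 3437, 4201, 4471 and 3444 in acetate. It was lower in each pair (log2 change -0.31 ± 0.04, limma adjusted p = 6.88e-04). Itga1, a related subunit, had 73.3, 516, 407 and 936 in vehicle and 100.5, 624, 501 and 1029 in acetate (0.29 ± 0.06, adjusted p = 0.0107). Discoidin domain receptors split as well, Ddr1 being higher (0.25 ± 0.04, adjusted p = 0.00216) and Ddr2 lower (-0.12 ± 0.03, adjusted p = 0.0150). Adgrg1, an adhesion receptor for type III collagen, was higher (0.34 ± 0.09, adjusted p = 0.0348), and Itgb1, which pairs with the alpha subunits, was not called (0.02 ± 0.03, adjusted p = 0.776). With a pair left out, Itga2 and Ddr1 passed in all 4 fits. Itga1 was lost without replicate 2 or 3 (adjusted p = 0.0676 and 0.0958). Without replicates 2, 3 and 4 in turn, Ddr2 was lost (0.0981, 0.0738 and 0.0856), and so was Adgrg1 (0.166, 0.188 and 0.217). Without the block none of the 8 was called.

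Since fibrillar collagen is a product of fibroblasts, markers of other cells were read beside the chains. Of 7 fibroblast markers 5 were in the table, summing to 231 to 1536 normalised reads in vehicle and 396 to 2016 in acetate. Nearly all of this was Pdgfra, with 229, 1213, 1036 and 1496 in vehicle and 388.5, 1609, 1508 and 1961 in acetate (log2 change 0.52, limma adjusted p = 3.72e-04). Like most chains it was lowest in replicate 1 and higher in acetate in each pair. Pdgfrb also passed (1.40, adjusted p = 0.0119) at 0 to 33.1 units. Dcn had at most 18 reads, Fap 10 and Pi16 15, and Lum and Thy1 were not in the table. Of 4 endothelial markers 3 were in the table, with sums of at most 7.06 units, and of 5 leukocyte markers only Ptprc was, with at most 4 reads. Of the 7 carcinoma markers, Krt19 (0.40, adjusted p = 2.54e-04), Cldn4 (0.30, adjusted p = 3.19e-04) and Cdh1 (0.15, adjusted p = 0.00592) rose with acetate too, and the other 4 did not pass. The part of other cells in the changes of the chains was not tested.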

How the data were processed

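Poly-A RNA libraries were made with a stranded kit, and per the labels the processing tools were STAR and HTSeq with build GRCm38 (mm10). The deposited unit is a signal: reads per gene that the authors scaled by the total of the library, so that every library sums to 20000000 within rounding. Each of the 20189 genes is above 0 in at least 4 of the 8 libraries. Reads were recovered from the step size of each library, and 100% of values came out whole within 0.05 read. In vehicle replicate 3, 1 read is worth 1.0053 units, too near 1 to tell from rounding at low values. At high values the 2 differ, as for Col7a1 with 7184 units and 7146 reads in that library.

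Acetate was compared with vehicle by limma 3.58.1 (R 4.3.3, two-sided) on log2(value + 1) with the replicate number as a block, fitted over the whole table. P-values were adjusted by Benjamini-Hochberg over all 20189 genes and called under 0.05. A fold change is that of value + 1 and is too small for low genes. The block was used because same-numbered libraries share an experiment code and their deviations from the group means correlated (0.78, 0.23, 0.17 and 0.63). The study's own gene ranking was unpaired. Alternatives were no block, pseudocounts of 0.1 and 5, genes of at least 10 units only, median-of-ratios scaling, edgeR 4.0.16 and DESeq2 1.42.0 on recovered reads with the block, and each pair left out. Members of the family are protein-coding symbols of GENCODE M21, which named 20004 identifiers. Chains with a mean of at least 10 units are given in every library, others by counts and by name where they passed. From the pathway lists the genes with the largest changes past the threshold in each direction are named, and Pcolce, P4ha1, Serpinh1 and Itgb1 were added after their values were seen. The members, classes and lists were chosen with earlier results of these data known. Intervals of sequences are on GRCm38, counted from 1, and promoter windows were matched by symbol. The fit was also run on simulated counts with larger changes than most called chains had, so that run does not bear on these calls.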

Additional observations from a re-analysis of the deposited data

Results flagged for a closer look

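Each of the 19 chains of at least 10 units was tested in both groups for a library far from the others, 38 tests in all. There were 4 such cases, where 5% of the 38 tests is about 1.9, and all 4 were in replicate 1. The values are the gap to the nearest library as a share of the whole range of the group, and each is above Dixon's critical value for 4 libraries. Col5a1 was lowest in vehicle 1 (954 normalised reads against 2413 to 2546, gap 0.917) and in acetate 1 (1221 against 3102 to 3215, gap 0.944). Col8a1 was lowest in acetate 1 (5069 against 5537 to 5548, gap 0.977). Col12a1 was highest in vehicle 1 (483 against 190.4 to 236, gap 0.844). Over all genes of at least 10 units, both libraries of replicate 1 were the lowest of their group in 48.9% and the highest in 26.0%. The share of all genes with such a far library was not counted, so the 4 cases are not read as particular to collagen.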

How the results depend on the processing

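With the block left out, 0 chains, 0 genes of the table, 0 maturation genes and 0 receptor genes passed. With the block, DESeq2 on recovered reads called 1126 genes in place of 1744, 3 receptor genes in place of 5, and 9 chains. It gave no adjusted p for the 13 chains under 10 units. The other settings with all pairs called 10 to 13 chains higher, and edgeR on recovered reads called 2400 genes. Leaving out a pair gave 6 to 12 chains, 409 to 1662 genes, 2 to 4 maturation genes in place of 6 and 2 to 5 receptor genes. The low ends came from fits without replicate 2, 3 or 4, each with fewer libraries. None of these settings called a chain lower. Median-of-ratios scaling kept the call of each of the 32 chains, though over all genes it called 1000 higher and 821 lower (54.9% higher) in place of 1209 and 535 (69.3%). Log2 changes of chains under 10 units depended on the pseudocount: with 0.1, 1 and 5 Col1a2 was at 1.84, 0.55 and 0.14, and Col5a3 at -0.65, -0.10 and 0.022. For Col6a4, at 0 reads in vehicle, the fits gave 4.10, 1.39 and 0.41 (4.08 in edgeR). These Col6a4 values are set by the constant added to 0 and are not measured folds. Col5a3 was at 0.16 in edgeR and at -0.35 to 0.15 with a pair left out. Ranges with a pair left out that crossed 0 were -0.37 to 0.55 for Col6a5, -0.037 to 0.46 for Col20a1, -0.0033 to 0.058 for Col8a1 and -0.0076 to 0.15 for Col4a6, which was at -0.01 in edgeR. None of these 5 was called in any fit. Col6a2, Col24a1 and Col14a1 passed with only genes of at least 10 units tested (adjusted p = 0.0256, 0.0478 and 0.0244) and in edgeR (6.33e-04, 0.00307 and 0.0200), and Col6a2 in DESeq2 (0.0159) too. Col14a1 also passed in limma with a pseudocount of 5 (log2 change 0.71, adjusted p = 0.0400). The causes of these differences between settings were not tested.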
